A study of Mus musculus with 4 samples.

Results

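A set of 9 stress response genes, of 55487 genes in the deposited tables, was followed through single-cell RNA sequencing of mouse brain vessels: Ppp1r15a, Atf4, Ddit3, Ddit4, Trib3 and Sesn2 of the integrated stress response, and Gadd45a, Gadd45b and Gadd45g of the Gadd45 family. They were chosen by symbol, with earlier results of these data known. Counts of members set against all genes are therefore not independent of that choice. Ppp1r15a is a gene that the study itself presents as differing in endothelium, so its direction there is not independent evidence. There were 4 libraries, a WT Cre and an EC-K4KO library from young mice and another pair from old mice, so that each group is 1 library. WT Cre mice carried the Cdh5-CreERT2 driver alone, and EC-K4KO mice carried the same driver with floxed Klf4, so that Cre acts in endothelial cells of the whole body and not only of the brain. All groups were induced with tamoxifen as adults, on a C57BL/6J background, per the study's methods, and both sexes were used, although the sample labels state that no drug was given. The labels give age only as young or old, the study sets its age cohorts as ranges in months that are not given per library, and the number of mice behind each library is not given in the sources used here. The sample titles name brain endothelial cells. The study's methods describe sorting or a surface marker for endothelium in other assays, and give no such step for these libraries. Other cells of the vessel wall and brain parenchyma were in the suspension too.

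The integrated stress response is a shared answer to amino acid shortage, misfolded protein in the endoplasmic reticulum (ER), viral RNA and haem shortage. Stress kinases phosphorylate the initiation factor eIF2, which lowers translation in general while the Atf4 messenger is translated more, and ATF4 then switches on Ddit3 (CHOP), Trib3, Ddit4, Sesn2 and the eIF2 phosphatase subunit Ppp1r15a (GADD34), which closes the loop. Because ATF4 is controlled mostly at translation, its RNA level does not report the amount of the protein. The Gadd45 proteins are small binding proteins, induced by DNA damage, cytokines and other stresses, that bind PCNA and act on the stress kinase pathways of p38 and JNK.

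The stretch of 250 bases before the start of each gene is shown for the 4 members whose endothelial RNA level passed the age test in all 10 fits, and for Gadd45g, the member whose window holds an ATF4-type element. The sequences are from RefSeq promoters (build GRCm38.p6), all 9 members matched, and they are written 5′ to 3′ on the gene's strand. Capitals mark matches to 4 motifs searched on both strands: the core of the amino acid response element bound by ATF4 and its partners (TGATGNAA), the cyclic AMP response element (TGACGTCA), the AP-1 site (TGANTCA) and the NF-kB site. No 2 of these matches overlap. Positions are counted from the RefSeq start, which among the windows shown differs for Ddit3, Gadd45b and Gadd45g from the GENCODE start used for gene positions.
Ppp1r15a, chr7:45526269-45526518, minus strand: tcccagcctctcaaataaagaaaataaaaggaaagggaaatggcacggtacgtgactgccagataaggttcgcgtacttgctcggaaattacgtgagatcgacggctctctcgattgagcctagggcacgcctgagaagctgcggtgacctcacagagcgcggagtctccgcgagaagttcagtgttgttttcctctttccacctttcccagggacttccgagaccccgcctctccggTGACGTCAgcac
Atf4, chr15:80254934-80255183, plus strand: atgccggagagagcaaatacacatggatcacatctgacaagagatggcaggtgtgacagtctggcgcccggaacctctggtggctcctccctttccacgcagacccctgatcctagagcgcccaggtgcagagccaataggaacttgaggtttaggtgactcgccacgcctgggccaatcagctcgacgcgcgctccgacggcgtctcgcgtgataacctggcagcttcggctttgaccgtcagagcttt
Ddit3, chr10:127290543-127290792, plus strand: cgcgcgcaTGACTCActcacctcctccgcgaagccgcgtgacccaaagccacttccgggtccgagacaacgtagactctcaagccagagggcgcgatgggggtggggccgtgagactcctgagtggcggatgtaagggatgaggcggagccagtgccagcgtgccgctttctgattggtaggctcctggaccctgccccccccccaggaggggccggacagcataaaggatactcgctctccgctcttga
Gadd45b, chr10:80929841-80930090, plus strand: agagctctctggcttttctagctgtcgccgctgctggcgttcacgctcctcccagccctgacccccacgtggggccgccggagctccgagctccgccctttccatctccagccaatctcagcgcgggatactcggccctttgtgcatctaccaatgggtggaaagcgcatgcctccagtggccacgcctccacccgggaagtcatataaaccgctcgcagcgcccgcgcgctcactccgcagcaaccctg
Gadd45g, chr13:51846425-51846674, plus strand: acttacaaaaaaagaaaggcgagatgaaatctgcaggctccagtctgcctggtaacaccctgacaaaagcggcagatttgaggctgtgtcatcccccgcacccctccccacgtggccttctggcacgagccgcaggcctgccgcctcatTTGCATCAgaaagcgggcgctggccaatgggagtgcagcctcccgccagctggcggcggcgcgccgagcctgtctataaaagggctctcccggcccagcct

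The cyclic AMP response element lay 12 to 5 bases before the start of Ppp1r15a, in no other member, and in 1.55% of 32851 promoter windows of the same length. The AP-1 match lay 242 to 236 bases before Ddit3 and was found in 6.75% of all windows, and the ATF4-type core lay on the opposite strand 101 to 94 bases before Gadd45g and was found in 3.45%. The NF-kB site was in none of the 9 member windows and in 1.41% of all windows. These are matches of letters in a short window, and binding was not measured here.

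Cells were sorted into classes by clustering without the members and the other gene lists described below, and the clusters were named from marker genes. Klf4 is in none of these lists and was not left out on purpose. The 20737 kept cells included 10184 endothelial-like cells: 2759 from young WT Cre, 3347 from the library labelled young EC-K4KO, 2173 from old WT Cre and 1905 from the library labelled old EC-K4KO. Their median depth was 6324, 9824, 4690 and 3767 UMIs (unique molecular identifiers, each counting 1 captured RNA molecule) in that order, so the old libraries were shallower. The names of classes were rebuilt from markers and can differ from the study's annotation. Pairs of libraries shared 7 to 42 cell barcodes. Levels are given as CPM, UMIs of the gene per 1000000 UMIs of the class in the library. Since each group holds 1 library, a ratio between 2 libraries has no replicate check, and its 95% interval covers counting error only. A ratio was called when it passed 1.5-fold (0.58 on the log2 scale), among genes that averaged 10 CPM or more. The only tests across libraries were an additive edgeR quasi-likelihood fit of age and genotype label to the endothelial-like sums, and fits of the difference in age effect between 2 cell classes.

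The targeted gene went against the genotype labels. Klf4 stood at 1706 CPM (young WT Cre), 3273 CPM (library labelled young EC-K4KO), 2093 CPM (old WT Cre) and 3295 CPM (library labelled old EC-K4KO). Both libraries labelled EC-K4KO were thus above both WT Cre libraries, by 0.94 on the log2 scale in young and 0.66 in old mice, and Klf4 passed the additive fit for the genotype label (0.83, edgeR adjusted p = 0.00943). Whether the counted reads lie inside the deleted part of Klf4 was not tested. The libraries are called by their labels below, and no direction between genotypes is drawn beyond the labels.

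With age, 5 of the 9 members rose in endothelial-like cells: Gadd45b, Ddit3, Sesn2, Ppp1r15a and Atf4. Gadd45b rose most, by 1.62 on the log2 scale, and Ddit3 by 1.04, whereas Atf4 rose by 0.45. Gadd45a, Gadd45g, Trib3 and Ddit4 did not pass. Over all 14979 genes tested, 11.3% passed as higher in old and 7.38% as lower, and the median age change was 0.45 on the log2 scale over the 9 members and -0.02 over all genes. The level in each library is shown in the plot of endothelial levels.

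**Figure D1:**
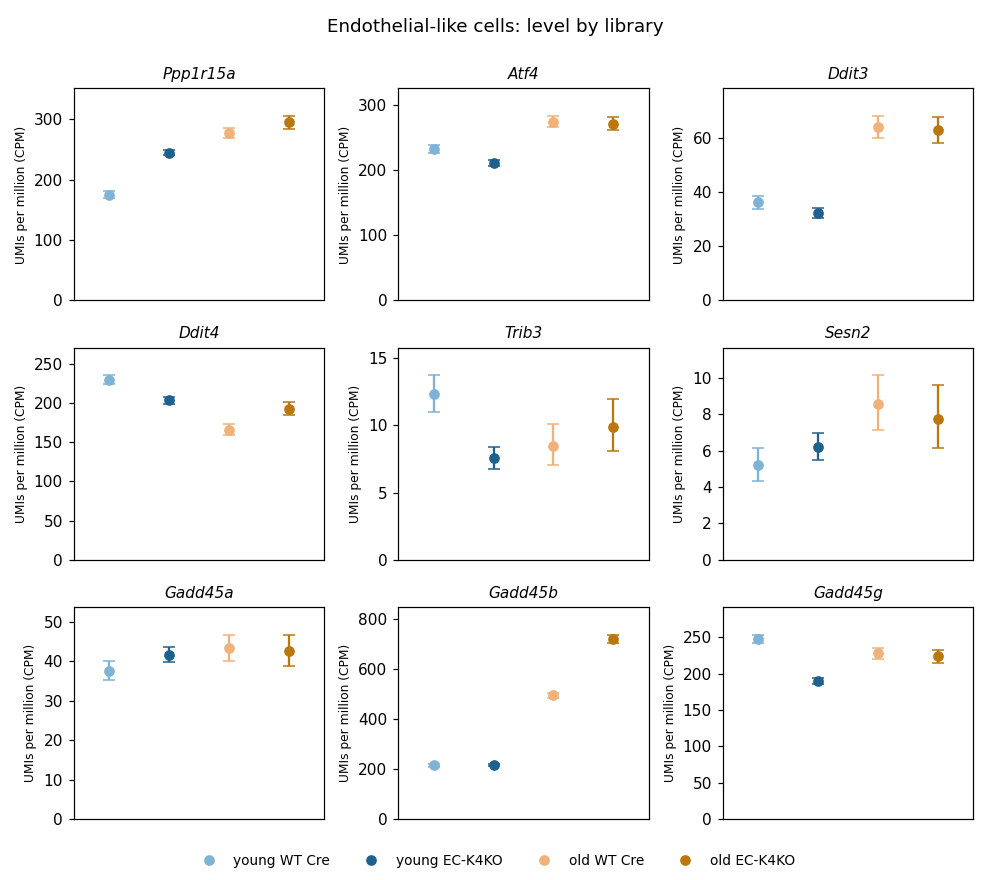
Level of each member in endothelial-like cells of the 4 libraries, in CPM with the exact Poisson 95% interval, which covers counting error only; each point is 1 library. Gadd45b, Ddit3, Atf4 and Ppp1r15a lie higher in both old libraries than in both young ones, whereas Trib3 and Gadd45g overlap between ages.

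Atf4, the transcription factor at the centre of the pathway (chromosome 15, 80255184 to 80257541 in GRCm38), stood at 232 CPM (young WT Cre), 210.5 CPM (library labelled young EC-K4KO), 274 CPM (old WT Cre) and 271 CPM (library labelled old EC-K4KO). Both old libraries were above both young ones, and the library labelled young EC-K4KO was the lowest. The age change was 0.45 on the log2 scale (edgeR adjusted p = 0.00453, and 5.82e-05 to 0.0245 over all 10 fits). Of the endothelial-like cells thinned to 1000 UMIs, 18.7% to 23.8% had an Atf4 UMI, against 61.0% to 74.7% before thinning.

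Ddit3 encodes CHOP, the factor that ATF4 induces under prolonged stress. Its level was 36.2 CPM and 32.3 CPM in the young libraries (WT Cre, then EC-K4KO label) and 64.1 CPM and 62.9 CPM in the old ones. The 2 genotype labels were within counting error of each other in old mice (log2 ratio -0.03, interval -0.17 to 0.12), and the ages did not overlap. The age change was 1.04 (edgeR adjusted p = 7.42e-05, all 10 fits past the threshold). Ddit3 (chromosome 10, 127290774 to 127296288) encloses a second gene entry of the same symbol on the same strand, which held 0 UMIs in the endothelial-like cells of all 4 libraries (3 counts, the limit that a count of 0 allows, are 0.0693 to 0.280 CPM here). Reads in exons that both entries share cannot be assigned to 1 of them, and its 3′ end overlaps Mars on the opposite strand, so the Ddit3 level is uncertain as an absolute value.

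Ppp1r15a, the regulatory subunit that brings protein phosphatase 1 to phosphorylated eIF2 (chromosome 7, 45522916 to 45526268), stood at 175 CPM (young WT Cre). It was at 245 CPM (library labelled young EC-K4KO), 277 CPM (old WT Cre) and 295 CPM (library labelled old EC-K4KO). Young WT Cre was the lowest library. The age change was 0.61 (edgeR adjusted p = 0.00483, 10 of 10 fits past the threshold), but within genotype labels it was uneven, 0.66 between the WT Cre libraries and 0.27 between those labelled EC-K4KO. None of these fits weighted the endothelial clusters alike. Over the alternative settings these ratios ran from 0.28 to 0.84 (WT Cre) and from 0.07 to 0.42 (EC-K4KO label). After thinning to 1000 UMIs, the share of endothelial-like cells with a Ppp1r15a UMI followed the same order, 11.6%, 16.6%, 18.8% and 19.3%.

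Ppp1r15a was also the member with the highest change by genotype label in the fit, 0.32, which did not pass (edgeR adjusted p = 0.241; 0.0160 to 0.631 over 10 fits, of which 2 passed). The log2 ratio of EC-K4KO label over WT Cre was 0.48 in young mice (interval 0.43 to 0.53) and 0.09 in old mice (0.02 to 0.16). Neither passed 1.5-fold, though the young ratio rose to 0.66 when cells were thinned. No member passed for the genotype label in the edgeR fit as reported or in DESeq2, while with no filter on low counts Ppp1r15a and Gadd45b passed, and in thinned cells Ppp1r15a. In the edgeR and DESeq2 fits 2 of 9 had an unadjusted p under 0.05 in each (Ppp1r15a and Gadd45b in edgeR). The share of all genes under that unadjusted threshold is not given here, so this count has no background to be read against. Over all genes, 0.941% passed as higher and 0.781% as lower with the EC-K4KO label after adjustment.

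The effectors under ATF4 were Ddit4, Sesn2 and Trib3. Ddit4, also REDD1, which restrains the growth kinase complex mTORC1, was at 229.7 CPM (young WT Cre), 203 CPM (library labelled young EC-K4KO), 166 CPM (old WT Cre) and 192 CPM (library labelled old EC-K4KO). Both old libraries were below both young ones, as in 57.4% of the genes over 10 CPM, although with TMM factors the ratio between the libraries labelled EC-K4KO turned from -0.08 to 0.06, and its age change of -0.13 did not pass (edgeR adjusted p = 0.386). Sesn2, a sestrin that senses leucine and also restrains mTORC1, was low, at 5.20 and 6.21 CPM in the young and 8.55 and 7.74 CPM in the old libraries. It passed with age at 0.67 (edgeR adjusted p = 0.0351), in 6 of 10 fits, and lost the call with library totals, with DESeq2, with doublets kept, and without the capillary-like cluster led by Adm and Ankrd37. Trib3, a pseudokinase that feeds back on ATF4 and CHOP, had 12.3 CPM (young WT Cre) and 7.55, 8.48 and 9.89 CPM in the other 3 libraries. Its age change missed the threshold (0.06, edgeR adjusted p = 0.869).

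Of the Gadd45 family, Gadd45b, the member most tied to cytokine and NF-kB signals, carried the largest difference. It stood at 215 CPM (young WT Cre), 217 CPM (library labelled young EC-K4KO), 495 CPM (old WT Cre) and 722 CPM (library labelled old EC-K4KO). The young libraries did not differ beyond counting error (log2 ratio 0.01, interval -0.03 to 0.06), which joined a higher level with the EC-K4KO label in arterial-like cells (0.57, 0.45 to 0.69) and a lower one in capillary-like cells (-0.80, -0.90 to -0.71), and both old libraries were above them. With the endothelial clusters weighted alike, the log2 ratio between the WT Cre libraries fell from 1.20 to 0.41 and was no longer past 1.5-fold. The age change in the fits, none of which weighted the clusters alike, was 1.62 (edgeR adjusted p = 7.27e-05, and 0.00111 at most over 10 fits). The share of thinned endothelial-like cells with a Gadd45b UMI was 11.5% and 10.7% in young and 21.4% and 25.5% in old libraries. Within old mice the library labelled EC-K4KO was 0.55 higher on the log2 scale (interval 0.50 to 0.59), just inside 1.5-fold.

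Gadd45a, the member that p53 controls, varied little: 37.6 and 41.7 CPM in the young and 43.3 and 42.5 CPM in the old libraries, and its age change missed the threshold (0.27, edgeR adjusted p = 0.0615). Gadd45g was at 248 CPM (young WT Cre), 190.1 CPM (library labelled young EC-K4KO), 228 CPM (old WT Cre) and 224 CPM (library labelled old EC-K4KO), with the ages overlapping. Both libraries labelled EC-K4KO were below both WT Cre libraries for Gadd45g, which held for 10.2% of the genes over 10 CPM. The reverse order was found for 7.72% of genes and for no member. The Gadd45g change by genotype label (-0.18) did not pass (edgeR adjusted p = 0.533).

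Between pairs of libraries, 7 of the 9 members averaged 10 CPM or more. None passed 1.5-fold between genotype labels, where 1.35% of genes were called higher and 1.13% lower in young mice, and 1.36% and 1.34% in old mice. Between the WT Cre libraries 3 of 7 were higher in old (Gadd45b, Ddit3 and Ppp1r15a) against 4.28% of all genes, and none lower against 6.86%. With the clusters weighted alike, 1 of the 7, Ddit3 (0.64), was past 1.5-fold higher there against 2.92% of all genes, with Gadd45b at 0.41 and Ppp1r15a at 0.28, and 2 were lower, Ddit4 (-0.66) and Gadd45g (-0.78), against 4%. In capillary-like cells, summed over their clusters, 3 were higher, Ddit3 (0.89), Ppp1r15a (0.72) and Gadd45b (0.66), against 3.97% of all genes. The same 2 were lower there (-0.79 and -0.77) against 6.99%. The cluster led by Adm and Ankrd37 held 179 cells (young WT Cre) and 351 cells (old WT Cre), with Gadd45b at 401 and 427 CPM. In the other capillary-like clusters Gadd45b was lower in old WT Cre, so none was past 1.5-fold higher. Ppp1r15a was lower in old WT Cre in the capillary-like cluster led by Hmcn1 and Ndnf and higher in the others. Ddit3 was higher in all of them. The part of cluster sizes in these ratios was not tested. Between the libraries labelled EC-K4KO 2 of 7 were higher (Gadd45b and Ddit3) against 4.15%, and none lower against 5.64%. In all, 5 of the 7 were in both old libraries above both young ones, against 15.3% of all genes. The 4 comparisons share libraries, so they are not independent of each other. The median gene lay at -0.18 (WT Cre) and -0.15 (EC-K4KO label) in the old over young ratios, and at -0.0145 and -0.00498 with TMM factors, so the member ratios of old over young are to be read against those medians. The interval of each ratio is shown in the plot of endothelial ratios.

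**Figure D2:**
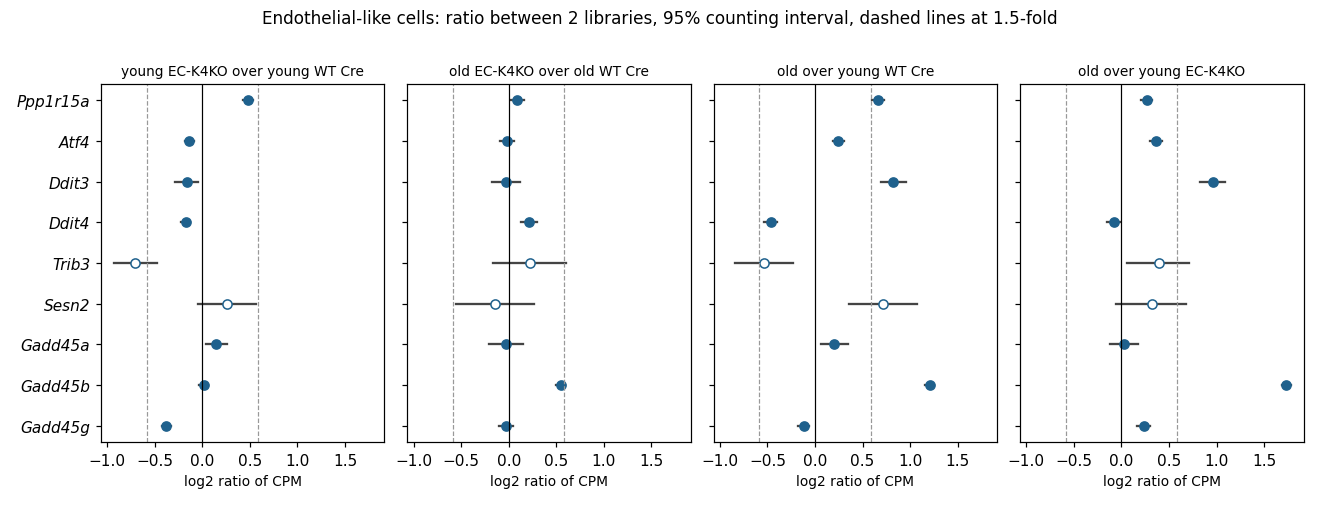
Log2 ratio of CPM between 2 libraries for each member in endothelial-like cells; points are ratios, bars exact 95% counting intervals, dashed lines 1.5-fold, and open points the 2 members with a mean under 10 CPM. Gadd45b reaches 1.20 between the WT Cre libraries and 1.73 between those labelled EC-K4KO in old over young, and no filled point passes 1.5-fold between genotype labels.

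Markers of other cells and early response genes were measured beside these levels. In endothelial-like cells the 23 immediate early and dissociation genes, which cells can induce while tissue is digested, summed to 17921 CPM (young WT Cre), 23214 CPM (library labelled young EC-K4KO), 30081 CPM (old WT Cre) and 27777 CPM (library labelled old EC-K4KO). Young WT Cre was the lowest for this sum as for Ppp1r15a, and both old libraries were above both young ones. Of these 23 genes, 15 passed as higher in old and none as lower, with a median of 0.63. Their part in the member changes was not tested. Smooth muscle markers, none of 6 at 0, summed to 32.0 to 165 CPM in endothelial-like cells against 42195 CPM or more in smooth muscle-like cells, and pericyte markers, none of 7 at 0, to 56.9 to 189 CPM, with the lowest value of both in the library labelled old EC-K4KO, where Gadd45b and Ppp1r15a were highest. Microglia markers, none of 7 at 0, summed to 51.0 to 52.7 CPM. Neutrophil markers stood at 149 CPM (library labelled old EC-K4KO) against 6.97 to 10.3 CPM in the others, with 1 of 6 at 0 in old WT Cre, while the 250 neutrophil-like cells of the library labelled old EC-K4KO had 259.6 CPM of Gadd45b, below its endothelial-like level there. Erythroid markers summed to 302 and 520.0 CPM in the young and 903 and 586 CPM in the old libraries, choroid plexus markers to 74.7 and 17.1 CPM against 295 and 138 CPM, border macrophage markers to 10.1 and 16.4 CPM against 24.5 and 32.0 CPM, and monocyte markers to 1.94 and 2.73 CPM against 6.45 and 11.5 CPM. Granulocyte precursor markers summed to 0.466 and 0.254 CPM against 0.855 and 4.94 CPM. All these lists, like the neutrophil markers, were higher in both old libraries, as Gadd45b was. Venous endothelial markers stood at 998 and 1236 CPM in the young and 1719 and 2716 CPM in the old libraries, and capillary markers at 5035 and 4635 CPM against 3280 and 2879 CPM. The part of these in the member changes was not tested beyond the weighting of clusters below.

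Within endothelium the members were spread unevenly over the vessel tree. Segments were named from arterial, capillary and venous markers, the comparison of segments is a description, and 1 venous-like sum rests on 29 cells (young WT Cre). A cluster led by Cyp2e1 and Wnt5a, whose 10 leading genes held 2 venous markers (Slc38a5 and Vwf) and 1 capillary marker (Car4), was given no segment. Ppp1r15a was higher in arterial-like than in capillary-like cells in every library: 380.1 against 112 CPM (young WT Cre), 527 against 162 CPM (library labelled young EC-K4KO), 468 against 183 CPM (old WT Cre) and 544 against 209 CPM (library labelled old EC-K4KO). Gadd45g was likewise higher in arterial-like cells, 431 to 529 CPM against 89.7 to 159 CPM. Gadd45b was highest in the venous-like cluster, led by Ackr1 and Lrg1, at 971 to 1461 CPM, against 89.0 to 322 CPM in capillary-like cells. Atf4 differed less between segments, at 189 to 220 CPM in arterial-like and 215 to 313 CPM in capillary-like cells.

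The age differences were not the same in all endothelial clusters, and the clusters differed in size between libraries. Gadd45b stood at 192 and 293 CPM in the young and 548 and 925 CPM in the old libraries in the larger arterial-like cluster, and at 188 and 155 CPM against 503 and 655 CPM in the cluster led by Cyp2e1 and Wnt5a. In the largest capillary-like cluster, led by Hmcn1 and Ndnf, the young WT Cre level lay between the old levels of 74.1 CPM (WT Cre) and 131 CPM (EC-K4KO label), and the library labelled young EC-K4KO had 39.7 CPM, so the ages overlapped. That cluster held 1146 and 1271 cells in young libraries against 317 and 264 in old ones. With the 7 clusters of at least 20 cells per library weighted alike, the Gadd45b log2 ratio of old over young between the libraries labelled EC-K4KO was 1.26, against 1.73. For Ppp1r15a the ages overlapped in clusters 0, 1, 3 and 7. Both old libraries were above both young ones for it in clusters 2 and 8, and below them in venous-like cluster 17.

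In the venous-like cluster 4 of the 7 members over 10 CPM lay lower in both old libraries than in both young ones (Gadd45g, Ddit4, Ppp1r15a and Gadd45a), an order that 34.3% of 8104 genes had there, and Trib3 also did, on 9 to 24 UMIs. Gadd45g was at 959 and 614 CPM in the young and 281 and 257 CPM in the old libraries, Ddit4 at 339 and 272 CPM against 122 and 152 CPM, and Ppp1r15a at 315 and 386 CPM against 239 and 215 CPM. Atf4 and Ddit3 lay higher in both old libraries, as 16.8% of genes did, at 210.4 and 202 CPM against 267 and 232 CPM for Atf4 and at 36.4 and 40.8 CPM against 63.7 and 55.6 CPM for Ddit3. Gadd45b was 0.59 higher in old on the log2 scale between the libraries labelled EC-K4KO and within counting error between the WT Cre libraries (-0.03). The log2 ratio of old over young for Gadd45g was -1.77 (interval -1.93 to -1.61) between the WT Cre libraries and -1.26 (-1.40 to -1.11) between those labelled EC-K4KO. Its arterial-like counterpart went the other way, at 0.29 (0.19 to 0.39) and 0.13 (0.02 to 0.24). The whole-class level of Gadd45g thus joined segments whose ratios had opposite signs. The early response genes summed to 35642 and 36597 CPM in the young and 28795 and 24482 CPM in the old venous-like cells, in the order of Ppp1r15a and Gadd45g between ages. These differences between segments were not tested.

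**Figure D3:**
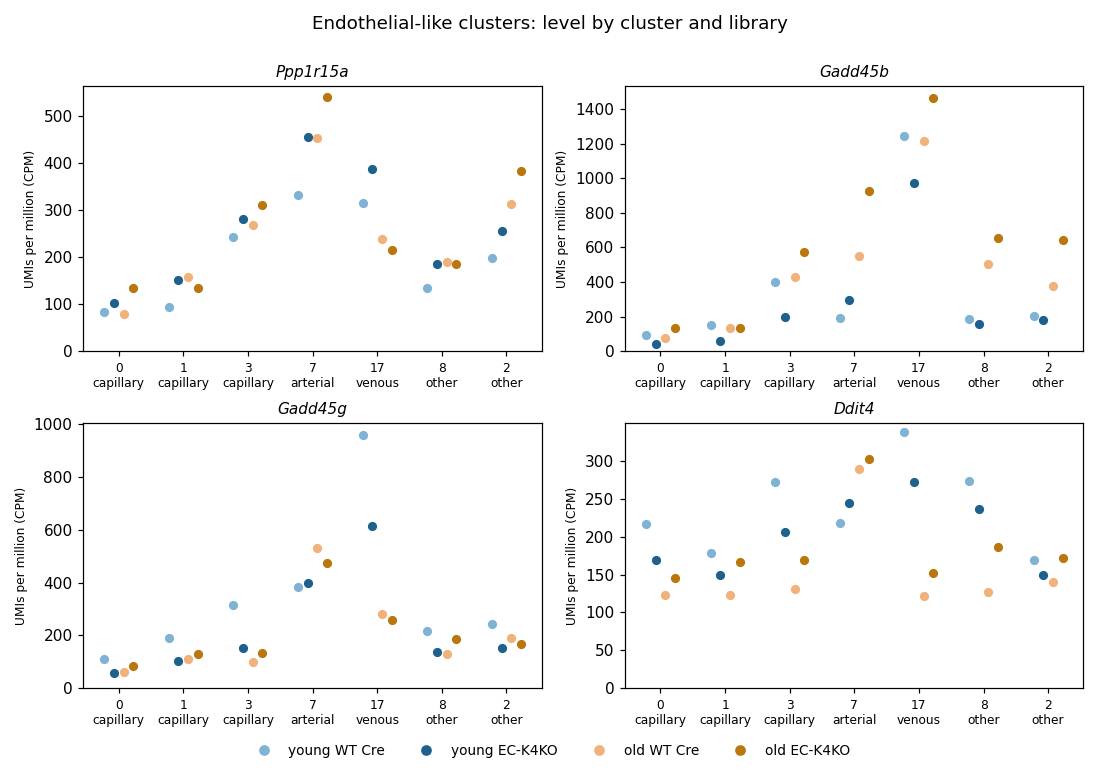
Level of 4 members in the 7 endothelial-like clusters with at least 20 cells in every library, in CPM; each point is 1 library, and the label under each cluster number is its segment (other: no segment named). Gadd45b is at 971 CPM or more in venous-like cluster 17, and Gadd45g and Ddit4 lie lower there in both old libraries than in both young ones.

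In capillary-like cells alone, Gadd45b stood at 155 CPM (young WT Cre) and 89.0 CPM (library labelled young EC-K4KO) (log2 ratio -0.80), and Gadd45g at 159 and 89.7 CPM (-0.82). Both were past 1.5-fold lower, as were 1.68% of 8435 genes in these cells. In old mice the same ratios were 0.39 and 0.36, inside 1.5-fold and of opposite sign. The lower Gadd45g level in young mice was not limited to capillary-like cells. Its young ratio was -0.64 in venous-like cells (interval -0.76 to -0.53) and -0.62 in cells with no segment named (-0.71 to -0.53). In arterial-like cells it was -0.01 (-0.10 to 0.09). In arterial-like cells Gadd45a was at 30.1 CPM (young WT Cre) and 55.9 CPM (library labelled young EC-K4KO) (0.89, interval 0.57 to 1.23), and at 51.3 and 67.9 CPM in the old libraries (0.41, 0.07 to 0.74). How many of all genes passed 1.5-fold in arterial-like cells is not given here, so the Gadd45a ratio is a description.

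Levels were compared over the 6 named classes with at least 50 cells in each library (endothelial-like, smooth muscle-like, pericyte-like, microglia-like, border macrophage-like and astrocyte-like), and among these smooth muscle-like cells had the highest average of 7 of the 9 members. The neutrophil-like cells, with 11 to 250 cells per library, were outside this order and held more Gadd45a, at 317 to 462 CPM, and more Sesn2, at 23.7 to 51.0 CPM. Over the 4 libraries Ppp1r15a averaged 1064 CPM in smooth muscle-like cells (1002 to 1156 CPM), 337 CPM in pericyte-like, 248 CPM in endothelial-like, 244 CPM in microglia-like, 150.4 CPM in border macrophage-like and 20.1 CPM in astrocyte-like cells. The ranges of endothelial-like (175 to 295 CPM), microglia-like (158 to 357 CPM) and pericyte-like cells (113 to 578 CPM) overlapped, while smooth muscle-like cells lay above and astrocyte-like cells (13.4 to 33.0 CPM) below all others. Gadd45b followed a similar order, from 2060 CPM in smooth muscle-like cells through 848, 829, 453 and 412 CPM in pericyte-like, microglia-like, border macrophage-like and endothelial-like cells to 18.5 CPM in astrocyte-like cells.

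Trib3 had its highest average in endothelium among the 6 classes. It averaged 9.56 CPM in endothelial-like cells (7.55 to 12.3 CPM), whereas each of the 5 other classes averaged 0.73 CPM or less, and border macrophage-like cells had 0 UMIs in all 4 libraries, which allows 2.49 to 8.23 CPM. Pericyte-like cells had 0 UMIs in 3 libraries, which allows 2.49 to 8.69 CPM, and astrocyte-like cells in both old libraries, which allows 3.96 and 5.74 CPM, and the highest of these limits lie within the endothelial-like range. Before thinning, 4.99% to 9.89% of endothelial-like cells had a Trib3 UMI, against 0% to 0.53% of microglia-like cells at a median of 4879 to 5625 UMIs. Sesn2 ran within 6.93 to 11.9 CPM on average in the 6 classes with overlapping ranges, and microglia-like cells were highest among these.

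Among the same 6 classes, Ddit4 and Gadd45g had their lowest averages in microglia-like and border macrophage-like cells. Ddit4 averaged 25.5 CPM in microglia-like and 29.9 CPM in border macrophage-like cells, whose ranges overlapped, against 268 CPM in smooth muscle-like and 198 CPM in endothelial-like cells. Gadd45g averaged 434 CPM in smooth muscle-like, 222 CPM in endothelial-like and 56.7 CPM in microglia-like cells. Atf4 ranged on average from 307 CPM in smooth muscle-like to 109.7 CPM in astrocyte-like cells, with overlapping ranges of endothelial-like and border macrophage-like cells in between. Ddit3 averaged 132 CPM in smooth muscle-like cells and 36.8 to 74.2 CPM in the other 5 classes. Gadd45a averaged 87.7 CPM in smooth muscle-like, 41.3 CPM in endothelial-like and 32.1 CPM in pericyte-like cells, and 9.43 to 13.2 CPM in the 3 other classes.

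**Figure D4:**
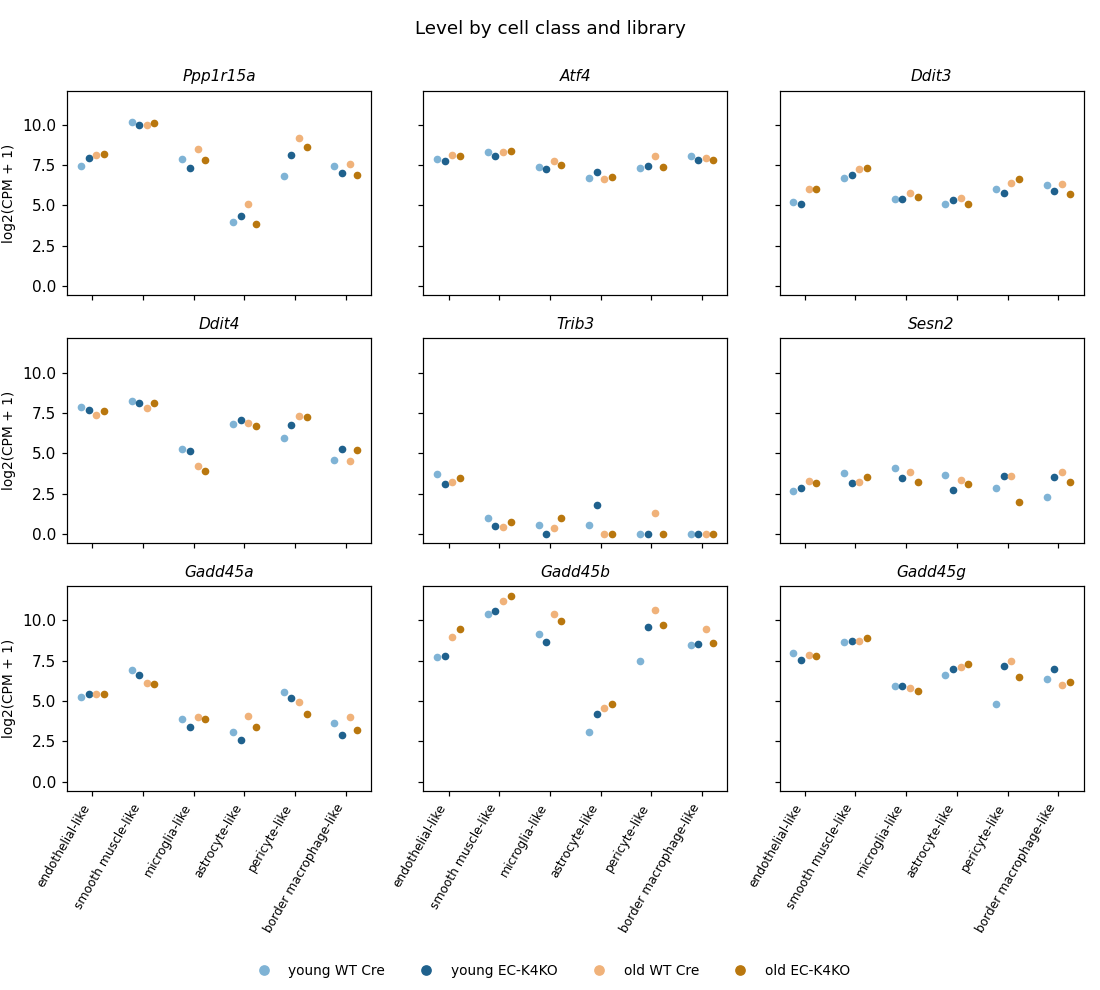
Level of each member in 6 cell classes, as log2(CPM + 1), with 1 point per library. Among these classes smooth muscle-like cells are highest on average for 7 of the 9 members, Trib3 is highest in endothelial-like cells, and astrocyte-like cells are lowest for Ppp1r15a and Gadd45b.

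The age effect differed between endothelial-like and smooth muscle-like cells for 3 members. Gadd45a in smooth muscle-like cells stood at 119 and 98.9 CPM in the young and 67.2 and 65.2 CPM in the old libraries, while the endothelial-like level stayed within 37.6 to 43.3 CPM. The difference of the age effects was 0.98 on the log2 scale (edgeR class by age term, adjusted p = 0.00145, 4 of 4 fits past the threshold). Gadd45b was higher in both old libraries in both classes, at 1361 and 1524 CPM in young and 2390.0 and 2964 CPM in old smooth muscle-like cells, and its fitted age effect was larger in endothelial-like cells (difference 0.76, adjusted p = 0.00221, 4 of 4 fits). None of these fits weighted the endothelial clusters alike. With that weighting the Gadd45b ratio of old over young was 0.41 between the WT Cre libraries, below 0.81 in smooth muscle-like cells. Between those labelled EC-K4KO it was 1.26, above 0.96. Ppp1r15a stood at 1156 and 1006 CPM in young and 1002 and 1091 CPM in old smooth muscle-like cells, with the ages overlapping, and its difference was 0.68 (adjusted p = 0.0233, 3 of 4 fits, 0.254 with library totals). Ddit3 (0.57, adjusted p = 0.0547, 2 of 4 fits) was just outside. In all, 2.61% of 14853 genes passed.

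The early response genes summed to 28315 and 25806 CPM in young and 23594 and 26666 CPM in old smooth muscle-like cells, while both old endothelial-like sums were above both young ones. Whether this sum accounts for the member differences was not tested.

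Against microglia-like cells no member passed for a different age effect, where 6.55% of 14644 genes did, and 2 of 9 (Ddit3 and Ddit4) had an unadjusted p under 0.05 in edgeR. That count has no background here, since the share of all genes under the unadjusted threshold is not given. DESeq2 was not run for this term. Gadd45b was higher in old microglia-like cells too, at 565 and 405 CPM in the young and 1340.2 and 1007 CPM in the old libraries, and the difference of the age effects was -0.03 (adjusted p = 0.967). Ddit4 stood there at 36.8 and 34.0 CPM in young and 17.2 and 14.1 CPM in old libraries (difference 0.66, adjusted p = 0.0561). A microglia-like cluster led by Il1a and Ccl3 held 32 and 48 cells in young libraries against 657 and 364 in old ones. With library totals Ddit3 and Ddit4 passed, and with no filter on low counts Ddit4 did.

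**Figure D5:**
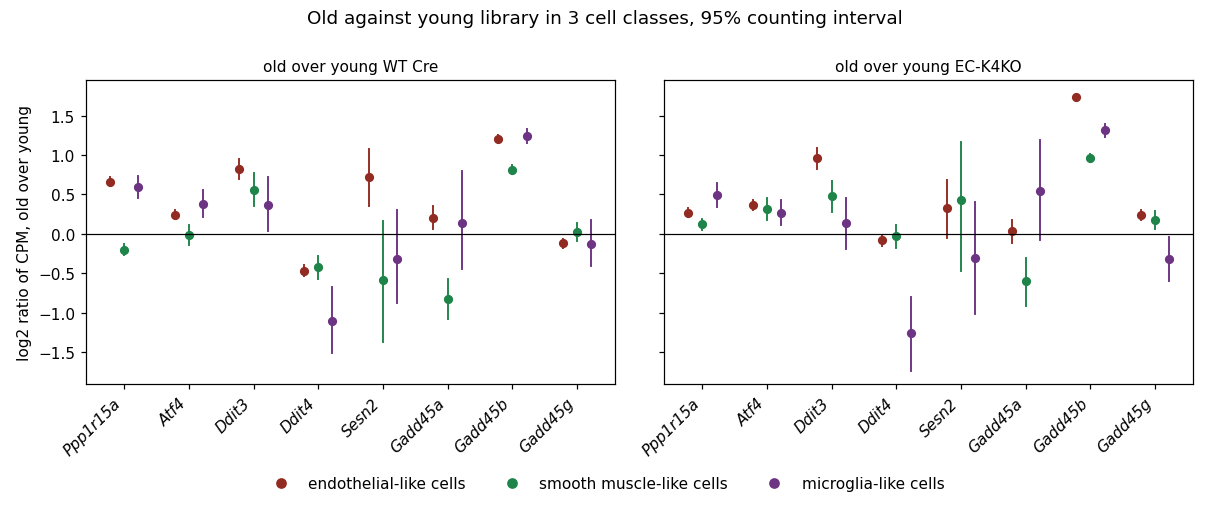
Log2 ratio of CPM of old over young libraries within each genotype label, for 8 members in 3 cell classes, with exact 95% counting intervals; Trib3 is left out for its few UMIs outside endothelium. Gadd45a is below 0 in smooth muscle-like cells in both panels, and Gadd45b is above 0 in all 3 classes in both.

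The other genes of the pathway were counted in the same age fit, and each count for age below is to be read against the 11.3% of all genes that passed as higher in old and the 7.38% that passed as lower. Passes for the genotype label are to be read against 0.941% of all genes higher and 0.781% lower with the EC-K4KO label. Of the 16 genes of the eIF2 kinases, eIF2, its exchange factor eIF2B and its phosphatase, 3 passed with age: Ppp1cc, a catalytic subunit of protein phosphatase 1, rose by 0.45, and the eIF2B subunits Eif2b4 and Eif2b5 fell by 0.45 and 0.43. The median of the 16 was -0.06. Eif2ak4, the kinase that senses uncharged transfer RNA, was among the 2 highest ratios of its list and missed the threshold for age (0.19, edgeR adjusted p = 0.223).

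Of 33 tested ATF4 target genes, 5 passed as higher in old (Gdf15, Slc7a11, Chac1, Cebpb and Cebpg) and 3 as lower (Shmt2, Slc7a5 and Aars), with a median of 0.03 against -0.02 over all genes, so these shares were near those of all genes. Slc7a11, the cystine transporter, stood at 3.03 CPM (young WT Cre), 5.45 CPM (library labelled young EC-K4KO), 9.21 CPM (old WT Cre) and 34.4 CPM (library labelled old EC-K4KO), and it also passed for the genotype label (1.47, edgeR adjusted p = 0.0148), the only gene of this list to do so. Slc7a5, the large neutral amino acid transporter of the blood-brain barrier, went from 483 and 559 CPM in young to 274 and 316 CPM in old libraries. Gdf15 encodes a secreted stress hormone, Cebpb and Cebpg transcription factors, Aars a transfer RNA synthetase and Shmt2 an enzyme of mitochondrial one-carbon metabolism.

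Of the 21 ER chaperone and unfolded protein response genes, 7 passed as higher in old and none as lower, with a median of 0.11. Hspa5, the chaperone BiP, stood at 331 and 338 CPM in the young and 541 and 616 CPM in the old libraries (0.93, edgeR adjusted p = 0.000169), and the co-chaperone gene Dnajb9 rose by 0.73. Herpud1, Ern1, Manf, Xbp1 and Dnajc3 rose by 0.24 to 0.58. Hyou1 and Pdia4 had the lowest ratios of the list and did not pass (-0.30 and -0.27). Of 19 tested p53 target genes, 7 passed as higher and Sesn1, the p53-controlled sestrin, as lower (-0.64). Tnfrsf10b rose by 0.92 and the cell cycle inhibitor Cdkn1a by 0.92, while Plk3, Fas, Bbc3 and Plk2 rose by 0.42 to 0.92. Fas (0.40) and Trp53inp1 (0.39) also passed as higher with the EC-K4KO label. Pmaip1, which encodes the cell death protein NOXA, passed for age (0.90) and for the genotype label (1.35). Among the p53 target genes over 10 CPM, Sesn1 and Aen had the lowest means of the 4 pairwise ratios, age and label alike. Aen did not pass for age (-0.23).

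Among the remaining lists, 6 of 9 hypoxia response genes passed as higher and none as lower, with Hilpda at 1.98, Ankrd37 at 1.56, Adm at 1.23 and Vegfa, Pdk1 and Bnip3 at 0.57 to 0.88, while Egln1 and Ndrg1 did not pass (-0.07 and 0.25). Of 8 glucocorticoid response genes, 4 passed as higher, with Zbtb16 at 2.38, Fkbp5 at 1.79, Per1 at 0.49 and Klf9 at 0.35, and Mt2 and Mt1 did not pass with age. For the genotype label, Tsc22d3, Fkbp5 and Zbtb16 passed as higher (0.81 to 0.90), and Mt2 (-0.72) and the hypoxia gene Ankrd37 (-0.39) as lower. By the mean of the 4 pairwise ratios, age and label alike, Ier3 and Hsph1 were the highest of the early response list, and Ier2 and Hspa1b the lowest. Their age changes were 2.07 (Ier3), 1.44 (Hsph1), -0.16 (Ier2, not passing) and 0.39 (Hspa1b, passing). The others that rose with age were Fosb, Junb, Jund, Atf3, Egr3, Ier5, Nr4a2, Btg2, Zfp36, Socs3, Hspa1a and Dnajb1 (0.31 to 0.97), and Klf6 passed for the genotype label (0.61). Of 14 sestrin and mTORC1 genes only Nprl3 passed, as lower (-0.62), and Sesn3, Rptor and Rheb did not pass. Of 9 tested Gadd45 partners, Map2k3 (0.59) and Pcna (0.48) rose, Tdg (-0.96) and Map2k6 (-0.68) fell, and Map2k7 did not pass (-0.09).

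The pattern of a member over classes and libraries was compared with that of every gene, over 24 points of 6 classes in 4 libraries, which share libraries and depth. The measure was Pearson r of log2(CPM + 1), given as a description. The patterns most like Ppp1r15a were those of Pnrc1 (0.97), Mafk (0.96) and Nr4a1 (0.96), and for Gadd45b those of Socs3 (0.95), Tra2b (0.95) and Csrnp1 (0.95). Atf4 was most like Cdkn1a (0.93), Ybx1 (0.92) and Csrnp1 (0.91), and Ddit3 most like Eif5a (0.88), Errfi1 (0.88) and Coq10b (0.87). Ddit4 was like Id3 (0.97) and Tspan12 (0.94), Gadd45g most like Larp1b (0.90), Sorbs2 (0.90) and Hmgn5 (0.90), and Gadd45a most like Pdcl3 (0.92), Wnt5b (0.91) and A4galt (0.91). Among the members themselves, Ppp1r15a and Gadd45b were the closest pair (0.95), and Ddit4 and Gadd45g followed each other (0.83) while Ddit4 and Gadd45b did not (0.01). Trib3 and Sesn2 had a mean under 10 CPM over these points and were left out.

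Within libraries, endothelial-like cells with a Ppp1r15a UMI more often had a Gadd45b UMI as well, when all cells were thinned to 1000 UMIs. The shares were 18.8% of 319 cells with Ppp1r15a against 10.5% of the 2440 others in young WT Cre, 21.2% against 8.64% in the library labelled young EC-K4KO, 33.3% against 18.7% in old WT Cre and 38.0% against 22.4% in the library labelled old EC-K4KO. For Gadd45g the shares were 28.5% against 13.6%, 19.0% against 9.71%, 18.6% against 11.7% and 16.0% against 11.9% in the same order. Gadd45a showed no such order, at 2.82% against 3.69% in young WT Cre and 5.43% against 4.36% in the library labelled old EC-K4KO. Fos, an early response gene, was also more frequent in cells with Ppp1r15a, 63.3% against 34.4% in young WT Cre and 73.9% against 53.2% in the library labelled old EC-K4KO. Cells of 1 library are not replicates, and these shares are descriptions.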

How the data were processed

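Single-cell RNA was measured in 4 libraries, 1 per group of age and genotype label. The authors deposited filtered matrices of UMI counts per gene and cell, whole numbers with no normalization. Per the file headers Cell Ranger 6.0.2 made them, and the submitters' processing notes name Seurat and mm10. Of 26422 barcodes, those with under 500 genes, under 1000 UMIs or over 10% of mitochondrial UMIs were left out. Scrublet's automatic threshold marked few cells, so the highest scores were removed at 0.8% per 1000 cells, which left 20737 cells.

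Library totals were 30655769 to 88812581 UMIs. Cells were clustered with scanpy 1.11.5 and leidenalg 0.10.2 (2000 variable genes, 30 components, 20 neighbours, resolution 1), with all listed genes left out. Clusters were named from markers by limits set after the clusters were seen: 9 of 33 were endothelial-like and 6 stayed unnamed. A vessel segment was named only where no other segment had more markers among the cluster's 10 leading genes. Counts were summed per class and library. Ratios used 0.5 added UMIs and exact conditional binomial 95% intervals (scipy 1.17.1), and levels exact Poisson intervals. Both, like the limit of 3 counts for a count of 0, cover counting error only. Sums were fitted with edgeR 4.0.16 (R 4.3.3; TMM, filterByExpr, quasi-likelihood, Benjamini-Hochberg over all genes) on age and genotype label, which leaves 1 residual degree of freedom. The spread behind its p-values is the part of the 4 libraries that age and label together do not explain, so they assume that age and label add. The 2 libraries of an age differ in label and are not replicates, so variation between replicate libraries was not measured. The class by age fits had the library as a block, and DESeq2 1.42.0 was an alternative.

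On simulated counts for the age fit with 14979 genes, 56 of 100 genes changed by 2-fold and 90 of 100 changed by 4-fold were recovered, and 16 unchanged genes were called. The simulated counts had the same assumed spread for every gene, no genotype effect and no shift in cell mix. They therefore do not give the error rate of the calls in the real libraries.

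The members and gene lists were chosen with earlier results of these data known. Named genes were all 9 members, in each list the 2 highest and 2 lowest mean ratios and all genes that passed, the 3 most alike genes per member (1 of them is not reported here), and Klf4. Gene positions are from GENCODE on GRCm38.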

Additional observations from a re-analysis of the deposited data

Results flagged for a closer look

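For 3 members the age effect differed between endothelial-like and smooth muscle-like cells by a test of the difference itself, the class by age term of the edgeR fit over 4 libraries. The difference, endothelial-like minus smooth muscle-like on the log2 scale, was 0.98 for Gadd45a, 0.76 for Gadd45b and 0.68 for Ppp1r15a. For Gadd45a the smooth muscle-like level was lower in both old libraries than in both young ones, for Gadd45b both classes were higher in old, and for Ppp1r15a the smooth muscle-like levels of young and old libraries overlapped. The Ppp1r15a difference did not pass with library totals (adjusted p = 0.254). None of the class by age fits weighted the endothelial clusters alike, so a shift in cluster sizes between libraries can enter these differences.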

How the results depend on the processing

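Of 800 values recomputed under an alternative, 619 kept their side of the threshold or moved within their counting interval and 172 moved further. Among the member fits 4 lost and 5 gained a call. Of 468 member ratios, 3 were no longer and 21 newly past 1.5-fold. No called value changed sign, but 40 uncalled ratios did, 7 of them with a reported interval without 0: Gadd45g old over young WT Cre (-0.12 to 0.05 with TMM factors, 0.06 with size factors and 0.05 without the cluster led by Adm and Ankrd37), Ddit4 old over young EC-K4KO (-0.08 to 0.06 with TMM factors, 0.07 with size factors and 0.02 without the venous-like cluster) and Gadd45g old over young EC-K4KO (0.23 to -0.18 with the same mix of clusters). For the genotype label, where no member passed, 2 passed with no filter on low counts and 1 in cells thinned to 1000 UMIs. For the age difference against microglia-like cells, where none passed, 2 passed with library totals and 1 with no filter. Members past 1.5-fold changed as follows. For the young label ratio, from 0, 1 was higher with cells weighted equally and 1 in thinned cells, and 2 were lower in capillary-like clusters only, with or without the cluster led by Cyp2e1 and Wnt5a (added after seeing the data). For the old label ratio, from 0, 1 was higher with the stricter cell filter. For old over young WT Cre, from 0, 1 was lower in thinned cells, 2 in capillary-like clusters only, also with that cluster added, and 2 with the same mix of endothelial clusters, where 1 instead of 3 was higher. The Gadd45b ratio of old over young WT Cre ran from 0.41 to 1.39, and that of Ppp1r15a from 0.28 to 0.84. The cause was not tested.

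Over all genes, the age fit called 2798 genes, 60.5% of them higher in old, against 27.1% of 3948 with library totals, 48.1% of 3850 with no filter, 81.3% of 990 with DESeq2 and 66.2% of 1255 in thinned cells. For the genotype label 258 genes passed, against 793 with no filter, 122 with library totals, 114 with DESeq2, 130 with doublets kept, 157 with cells classed alone and 114 without the cluster led by Adm and Ankrd37. Against microglia-like cells 959 passed, 42.4% with the higher age effect in endothelial-like cells, against 81.0% with library totals, 1660 genes with no filter and 266 without the cluster led by Il1a and Ccl3, and against smooth muscle-like cells 387 (85.3%), against 184 (66.8%) with library totals. The same mix of clusters and the runs without a cluster were added after seeing the data. Groups could not be paired, since each holds 1 library, and only classes within a library were, in the class by age fits. Trib3 and Sesn2, with few UMIs, are limited by depth.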
